A study of Mus musculus with 8 samples.

Results

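The measurements below concern 10 genes that code for activin and TGF-beta ligands, their inhibitor follistatin, feedback regulators of SMAD signalling, and matrix and nuclear proteins that TGF-beta or the coactivator YAP are known to induce: Inhba, Inhbb, Tgfb1, Fst, Skil, Pmepa1, Ccn1, Ccn2, Ankrd1 and Tgfbi. They were found by mapping every non-control probe to a mouse gene through its RefSeq transcript or gene name, which gave 12 probes for the 10 genes, out of 25804 genes and unnamed probes tested. The probes with the highest mean were A_51_P239750 for Inhba, A_55_P2096422 for Inhbb, A_51_P390715 for Tgfb1, A_55_P2394308 for Fst, A_51_P118132 for Skil, A_55_P1983588 for Pmepa1, A_51_P252859 for Ccn1, A_51_P157042 for Ccn2, A_52_P120803 for Ankrd1 and A_51_P212754 for Tgfbi. Every one of the 12 probes was well above background on all 8 arrays.

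The cells were mouse 3T3-L1, a fibroblast line that can take on features of fat cells, kept in adipogenic medium for 1 week. They then received supernatant, diluted 2-fold, of human HL-60 leukemia cells that had been cultured for 5 days with 30 nM of the phorbol ester PMA, which drives them to a macrophage-like state. In the knockdown groups (KD in the plots) the HL-60 cells carried a knockdown of USP2, a ubiquitin-specific protease, and in the control groups they carried a control vector. RNA was extracted from the 3T3-L1 cells 3 h or 6 h after the supernatant was added, which gave control 3 h, knockdown 3 h, control 6 h and knockdown 6 h, each on 2 one-colour arrays described as biological replicates. All 3T3-L1 groups received PMA-treated HL-60 supernatant, no group went without it, and the knockdown was not made in the cells whose RNA was measured. Whether replicate wells received the same batch of supernatant is not stated, so the p-values speak only to the spread between these 8 samples.

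TGF-beta and the activins are secreted dimers that bind paired serine/threonine kinase receptors, and these phosphorylate SMAD2 and SMAD3, which enter the nucleus with SMAD4 and act on target genes. Several targets, among them Smad7, Skil and Pmepa1, code for proteins that dampen the pathway. YAP and its relative TAZ bind TEAD factors when the Hippo kinases leave them unphosphorylated, and Ccn1, Ccn2 and Ankrd1 are their best known readouts, Ccn2 being a classical TGF-beta target as well. In preadipocytes and adipocytes, TGF-beta and activin A are known to restrain fat cell differentiation.

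Promoter sequence was at hand for 6 of the 10 genes, from RefSeq on GRCm38.p6. The 250 bases before the transcript start are shown for Ccn1 and Ankrd1, which hold the 6-letter core GGAATG bound by TEAD factors, and for Inhba, which does not and had the smallest adjusted p of the 10 genes between supernatants at 3 h. The core, searched on both strands, is in capitals, and CATTCC is its reverse complement. The regions are chr3:145649986-145650235 (minus strand), chr19:36119845-36120094 (minus strand) and chr13:16011601-16011850 (plus strand).
Ccn1: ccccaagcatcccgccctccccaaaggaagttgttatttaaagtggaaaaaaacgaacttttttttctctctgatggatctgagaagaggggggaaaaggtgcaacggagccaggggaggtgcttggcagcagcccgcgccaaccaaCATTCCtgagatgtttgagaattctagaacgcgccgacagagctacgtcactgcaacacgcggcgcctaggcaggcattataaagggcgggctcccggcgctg
Ankrd1: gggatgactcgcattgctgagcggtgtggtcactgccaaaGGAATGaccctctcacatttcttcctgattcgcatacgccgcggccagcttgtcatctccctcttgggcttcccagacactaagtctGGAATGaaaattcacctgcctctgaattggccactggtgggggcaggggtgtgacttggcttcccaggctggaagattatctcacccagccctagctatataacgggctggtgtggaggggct
Inhba: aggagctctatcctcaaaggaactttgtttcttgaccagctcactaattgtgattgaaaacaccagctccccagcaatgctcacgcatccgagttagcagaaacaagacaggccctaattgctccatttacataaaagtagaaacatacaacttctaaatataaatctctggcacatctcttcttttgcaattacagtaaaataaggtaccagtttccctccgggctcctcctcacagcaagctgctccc

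Counting back from the start, the Ccn1 promoter held the TEAD core at position -103, and the Ankrd1 promoter held it at -210 and -123. The core was not found in the windows of Inhba, Inhbb, Tgfb1 and Tgfbi, and 12.6% of the 32851 promoters of the table held it. The SMAD box CAGAC, searched on both strands, was in the windows of Ankrd1 and Tgfbi and in 42.2% of all promoters. The AP-1 motif TGANTCA (6.75% of promoters) and the palindrome GTCTAGAC bound by SMAD3 and SMAD4 (0.167%) were found in none of the 6 windows. In Ankrd1 the SMAD box at -127, on the reverse strand, shares 1 base with the TEAD core at -123. Ccn2, Fst, Skil and Pmepa1 had no entry.

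Signals are given as log2 of the scanner's processed signal minus the log2 75th percentile of that array, called log2 signal here, and can be compared between arrays for 1 gene but not between genes. A difference between groups is a log2 difference, and folds are given beside it. Arrays carried 50.7% to 55.9% of spots well above background, and the arrays of control 6 h differed most from each other (the SD of the difference between its replicates over all genes was 0.527, against 0.225 to 0.394 in the other groups). Bright patches covered at most 0.838% of the spots of an array, the most on both control 6 h arrays, and no spot of the 10 genes lay in one. All arrays lay on 1 slide. The control arrays filled its first 2 columns and the knockdown arrays the others, with 3 h in row 1 and 6 h in row 2, so supernatant and slide column, and time and slide row, cannot be told apart.

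The label adipocyte was checked against markers. Of 12 adipocyte markers, 5 had signal well above background everywhere, Pparg and Fabp4 among them, and 6 on no array, including Adipoq, Cd36, Cidec and Lep. Of 9 preadipocyte and fibroblast markers 8 were present on all arrays, including Dlk1 and Vim. Of 7 macrophage and leukocyte markers with a probe, 4 were present on all arrays (Csf1r, Itgam, Cd14 and Lyz2), while the defining Ptprc, Adgre1 and Tyrobp were on none. Itgam was present on all arrays only through its brightest probe, its dimmer probes being well above background on 6 and 5 arrays. Of 8 endothelial and muscle markers 3 were present on all arrays and 5 on none.

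**Figure D1:**
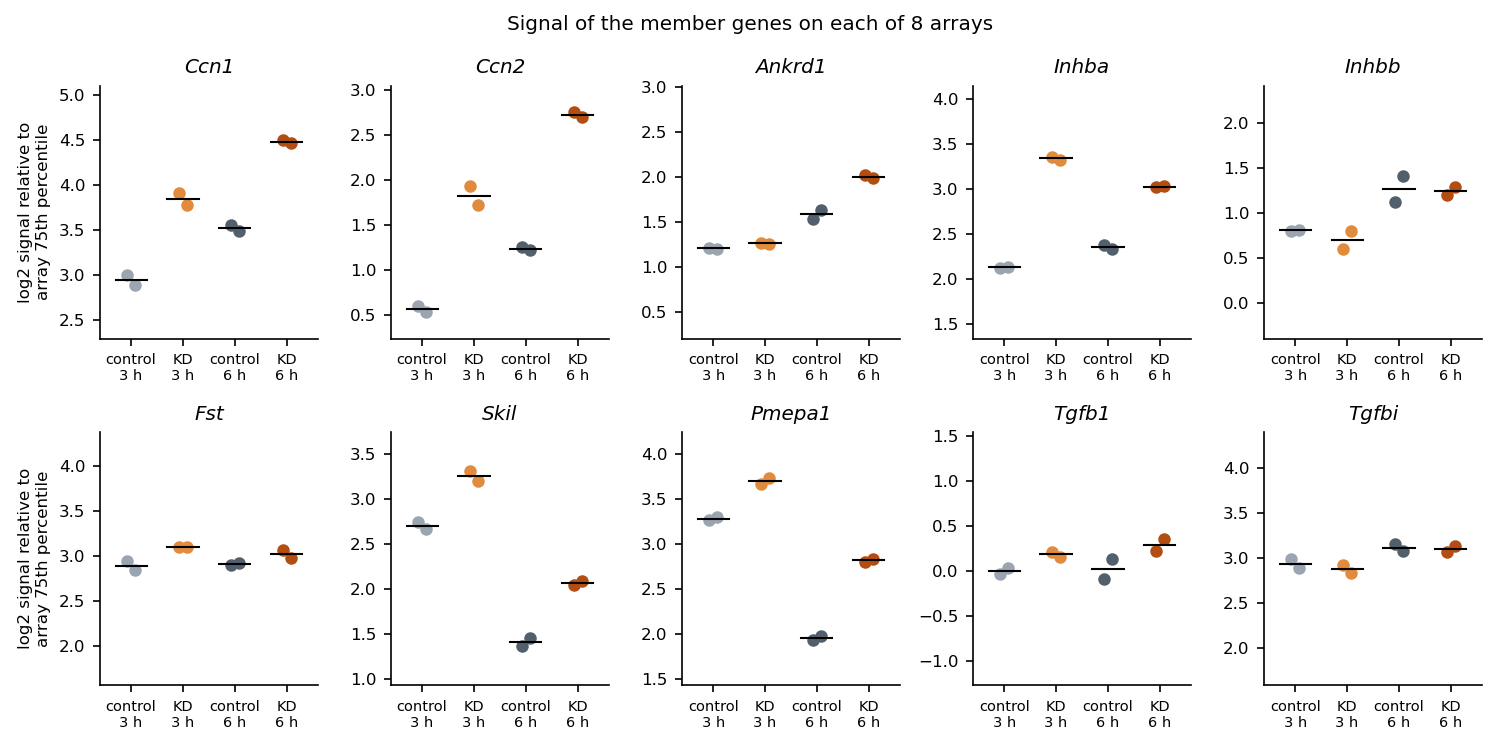
Log2 signal (relative to the array's 75th percentile) of each of the 10 genes on each of the 8 arrays, with a point per array and a line at the mean of the 2 arrays of a group. All panels span the same number of log2 units but start at different levels, since levels of different probes cannot be compared. In Ccn1, Ccn2 and Inhba all 4 knockdown arrays lie above all 4 control arrays, and so they do in Fst and Tgfb1, which were not called. This held for 2.10% of all features. Skil and Pmepa1 are high at 3 h and low at 6 h.

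Between supernatants, 3 of the 10 genes were higher with knockdown supernatant at 3 h (Inhba, Ccn1 and Ccn2) and 6 at 6 h (these 3 with Skil, Pmepa1 and Ankrd1), and none was lower. Genes were called at an adjusted p under 0.05 in limma with Benjamini-Hochberg adjustment over all 25804 genes and probes. The background of calls was 0.248% at 3 h (0.225% higher) and 2.22% at 6 h (1.52% higher). Averaged over both times 5 of the 10 were higher, against a background of 3.06% (2.10% higher). The 10 genes were chosen with earlier results of these data known, so their shares above the background carry no test. The median log2 difference of the 10 genes was 0.31 at 3 h and 0.54 at 6 h, beside -0.02 and -0.01 over all genes and probes tested. In these bulk samples, fewer cells of a type and less RNA per cell cannot be told apart. At 3 h, Ccn2 and Inhba lost their calls without either control 3 h array, either knockdown 3 h array or either knockdown 6 h array, and Ccn1 without any 1 of the 8 arrays, with adjusted p up to 0.278 for Ccn1 and 0.192 for Ccn2 and Inhba. No call was made at 3 h when only the 4 arrays of that time were fitted, without scaling or without the filter on dim probes. At 6 h the same settings left 0, 1 (Ccn2) and 0 of the 10 genes called.

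**Figure D2:**
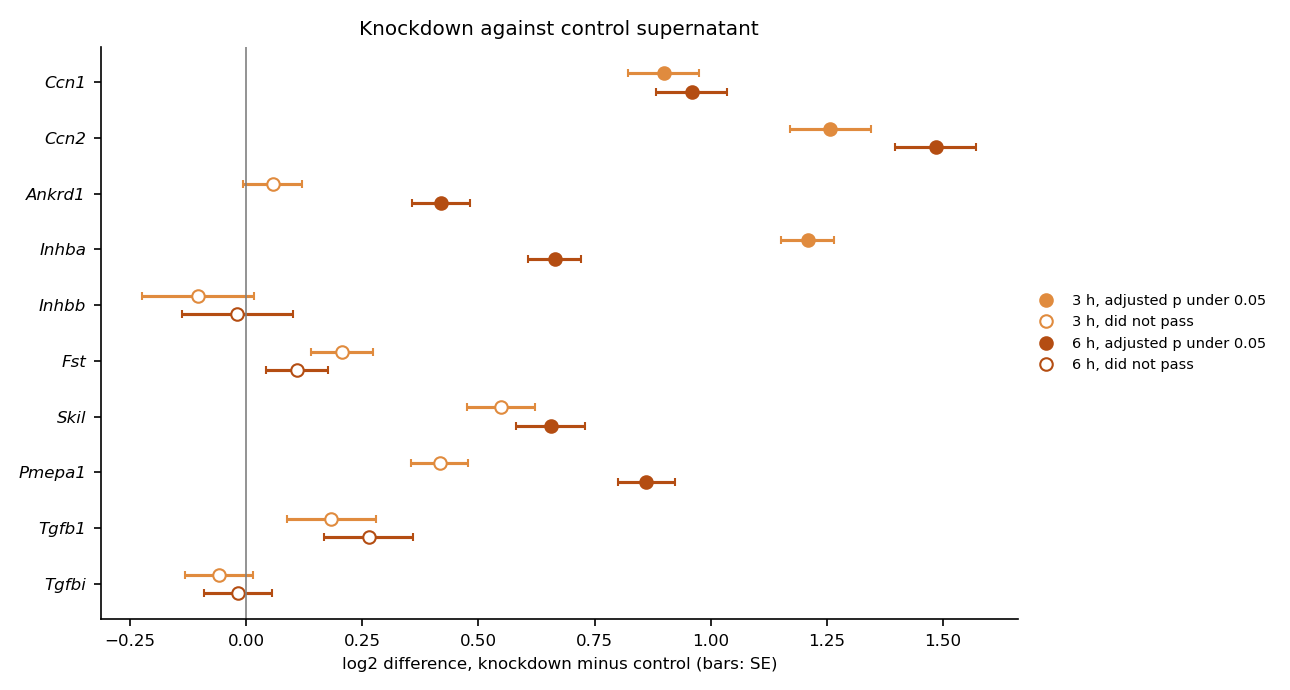
Log2 difference, knockdown minus control supernatant, of each gene at 3 h (light) and 6 h (dark), with bars of 1 standard error of the limma model. Filled points passed an adjusted p of 0.05. Ccn2 has the largest difference at both times (1.26 and 1.48), and Inhbb and Tgfbi lie at or just below 0.

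Among the ligands, Inhba, which codes for the beta A subunit of activin A, was higher with knockdown supernatant at both times and Inhbb and Tgfb1 were not called. For Inhba the log2 signal was 2.13 and 2.14 at control 3 h, 3.36 and 3.32 at knockdown 3 h, 2.38 and 2.34 at control 6 h and 3.02 and 3.03 at knockdown 6 h. All 4 knockdown arrays were above all 4 control arrays, the 3 h pair highest. The log2 difference was 1.21 ± 0.057 (SE, 2 arrays a group; 2.31-fold, adjusted p = 0.0119) at 3 h and 0.66 ± 0.057 (1.59-fold, adjusted p = 0.0101) at 6 h. Averaged over both times it was 0.94 ± 0.040 (adjusted p = 0.00146), a call kept in all 20 alternatives. The 6 h call was lost without replicate 1 of knockdown 6 h (adjusted p = 0.0634).

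The difference in Inhba between supernatants was smaller at 6 h than at 3 h by 0.54 ± 0.081 on the log2 scale, from a rise with time in control supernatant and a fall in knockdown supernatant. That change did not pass (unadjusted p = 0.000624, adjusted p = 0.271 in limma). No gene was called in the test of this change (0.00% of 25804; 2224 had an unadjusted p under 0.05). That count depended on single arrays: it was 258 and 295 without replicates 1 and 2 of control 6 h, 37 without replicate 2 of knockdown 6 h and 0 to 3 without any 1 of the others, with none of the 10 genes among the calls.

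Inhbb codes for the beta B subunit, which forms activin B. The replicates read 0.80 and 0.82 at control 3 h, 0.61 and 0.80 at knockdown 3 h, 1.12 and 1.41 at control 6 h, and 1.20 and 1.29 at knockdown 6 h. The supernatant groups overlapped at both times, with log2 differences of -0.10 (95% interval -0.40 to 0.19) at 3 h and -0.02 (-0.32 to 0.28) at 6 h. The upper limits are below the differences measured for Inhba at the same times.

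Tgfb1 codes for TGF-beta 1. It gave log2 signals of -0.03 and 0.03 at control 3 h, 0.21 and 0.16 at knockdown 3 h, -0.08 and 0.13 at control 6 h, and 0.22 and 0.35 at knockdown 6 h. Every knockdown array was above every control array, with the nearest at 0.13 and 0.16. The log2 differences of 0.18 ± 0.096 at 3 h and 0.26 ± 0.096 at 6 h did not pass (adjusted p = 0.594 and 0.227), nor did the average of 0.22 ± 0.068 (adjusted p = 0.156).

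Fst codes for follistatin, a secreted protein that binds activins and blocks their access to receptors. On the log2 scale its signal was 2.94 and 2.84 at control 3 h, 3.10 and 3.10 at knockdown 3 h, 2.90 and 2.92 at control 6 h, and 3.06 and 2.98 at knockdown 6 h. The 4 knockdown arrays were above the 4 control arrays, over a total range of only 0.26 log2 units. The log2 differences of 0.21 ± 0.067 (adjusted p = 0.360) and 0.11 ± 0.067 (adjusted p = 0.415) did not pass, nor did the average (0.16, adjusted p = 0.153), which passed under median scaling alone. Its 95% limit of 0.37 at 3 h is below the difference of Inhba at that time.

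Skil codes for SnoN, a corepressor that holds SMAD complexes inactive and is itself induced by TGF-beta and activin. Skil read 2.74 and 2.67 at control 3 h, 3.31 and 3.20 at knockdown 3 h, 1.37 and 1.46 at control 6 h, and 2.05 and 2.10 at knockdown 6 h. Within each time both knockdown arrays were above both control arrays. The signal at 6 h was lower than at 3 h in either supernatant, so the 4 knockdown arrays overlap the 4 control arrays once the times are joined.

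The log2 difference of Skil between supernatants was 0.55 ± 0.074 at 3 h, which did not pass (adjusted p = 0.0727), and 0.66 ± 0.074 at 6 h (1.58-fold, adjusted p = 0.0190). The average was 0.60 ± 0.052 (adjusted p = 0.00741), which was lost without replicate 1 of knockdown 3 h (adjusted p = 0.0546). The 6 h call was lost without either array of control 3 h, knockdown 3 h or knockdown 6 h, with adjusted p up to 0.0872. A dimmer probe of Skil, tested by itself, gave 0.63 ± 0.161 and 0.61 ± 0.161, with wider errors, and did not pass at either time (adjusted p = 0.260 and 0.140).

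Pmepa1 codes for a membrane protein that binds SMAD2 and SMAD3 and limits their activation. Pmepa1 gave log2 signals of 3.26 and 3.30 at control 3 h, 3.66 and 3.73 at knockdown 3 h, 1.93 and 1.98 at control 6 h, and 2.80 and 2.84 at knockdown 6 h. As in Skil, both knockdown arrays were above both control arrays within each time, and the 6 h arrays were low. The log2 difference was 0.42 ± 0.061 at 3 h (adjusted p = 0.0829) and 0.86 ± 0.061 at 6 h (1.82-fold, adjusted p = 0.00759), and the average was 0.64 ± 0.043 (adjusted p = 0.00433).

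The 6 h difference of Pmepa1 held its call without any 1 array. A dimmer probe of the gene gave 0.41 ± 0.207 at 3 h and 1.15 ± 0.207 at 6 h and did not pass (adjusted p = 0.570 and 0.0611), its control 6 h arrays lying apart at 0.68 and 1.34. The change of the supernatant difference between the times was 0.44 ± 0.087 and did not pass (adjusted p = 0.373).

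Ccn2 codes for connective tissue growth factor, a secreted matrix-associated protein. Ccn2 had log2 signals of 0.60 and 0.53 at control 3 h, 1.93 and 1.72 at knockdown 3 h, 1.26 and 1.22 at control 6 h, and 2.75 and 2.70 at knockdown 6 h. The knockdown 3 h arrays were above the control 6 h arrays, so the groups did not overlap with the times joined. The log2 difference was 1.26 ± 0.087 (2.39-fold, adjusted p = 0.0185) at 3 h, 1.48 ± 0.087 (2.80-fold, adjusted p = 0.00563) at 6 h and 1.37 ± 0.062 (adjusted p = 0.00146) on average. At 6 h the call stood without any 1 array (adjusted p up to 0.0360), and the average was called in all 20 alternatives.

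Ccn1 codes for CYR61, a secreted relative of Ccn2 that binds integrins. Ccn1 had log2 signals of 3.00 and 2.90 at control 3 h, 3.91 and 3.78 at knockdown 3 h, 3.55 and 3.49 at control 6 h, and 4.50 and 4.46 at knockdown 6 h. All 4 knockdown arrays were above all 4 control arrays. The log2 difference was 0.90 ± 0.076 (1.86-fold, adjusted p = 0.0308) at 3 h, 0.96 ± 0.076 (1.94-fold, adjusted p = 0.00872) at 6 h and 0.93 ± 0.054 (adjusted p = 0.00316) on average. The average was called in all 20 alternatives, and the 6 h call was lost without replicate 1 of knockdown 6 h (adjusted p = 0.0574).

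Ankrd1 codes for a nuclear ankyrin repeat protein first known from heart muscle. Its log2 signal was 1.22 and 1.20 at control 3 h, 1.27 and 1.26 at knockdown 3 h, 1.53 and 1.64 at control 6 h, and 2.02 and 1.99 at knockdown 6 h. The supernatants were nearly level at 3 h, and at 6 h both knockdown arrays were above both control arrays. The log2 difference was 0.06 ± 0.063 at 3 h (adjusted p = 0.856) and 0.42 ± 0.063 at 6 h (1.34-fold, adjusted p = 0.0372). The 6 h call was lost without any 1 array other than replicate 2 of control 6 h (adjusted p up to 0.160). The average of 0.24 ± 0.044 (adjusted p = 0.0572) did not pass but did in 6 of 20 alternatives, that array left out among them, and the change between the times, 0.36 ± 0.089, did not pass (adjusted p = 0.441).

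Tgfbi codes for a secreted matrix protein named for its induction by TGF-beta. Its log2 signal was 2.99 and 2.89 at control 3 h, 2.93 and 2.83 at knockdown 3 h, 3.16 and 3.08 at control 6 h, and 3.07 and 3.13 at knockdown 6 h. The supernatants overlapped at both times, with log2 differences of -0.06 (95% interval -0.24 to 0.12) at 3 h and -0.02 (-0.20 to 0.16) at 6 h. Both intervals lie below the differences of Ccn1 and Ccn2 at the same time.

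Arrays of the 2 supernatants did not overlap, with knockdown higher, for 8 of the 10 genes at 3 h and for 8 at 6 h, all but Inhbb and Tgfbi. This held for 20.2% of all features at 3 h and 24.7% at 6 h, a share that is large with 2 arrays a group. With all 4 arrays against 4, it held for 5 of the 10 (Inhba, Tgfb1, Fst, Ccn1 and Ccn2) and for 2.10% of all features. The summed linear signal of the macrophage markers, relative to the 75th percentile, was 42.2 to 44.5 on the control and 52.9 to 54.7 on the knockdown arrays at 3 h, and 37.1 to 42.6 and 37.6 to 40.3 at 6 h. Its bright probe of Itgam carries most of that sum (log2 signals of 5.28 and 5.22 at control 3 h and 5.56 and 5.62 at knockdown 3 h). At control 3 h the dimmer Itgam probes read -3.66 and -3.95, and -4.16 and -4.66. At knockdown 3 h they read -3.42 and -3.56, and -4.36 and -3.98. The markers did not move together at 3 h: Cd14 was higher on the knockdown arrays (1.18 and 1.16 against 1.78 and 1.64), and Csf1r (1.66 and 1.35 against 1.20 and 1.18) and Lyz2 (-2.42 and -2.33 against -3.00 and -2.54) were lower. The defining genes Ptprc, Adgre1 and Tyrobp were not well above background on any array, and the part of these shifts in the members' differences was not tested.

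Between 6 h and 3 h, 7 of the 10 genes changed with control supernatant and 7 with knockdown supernatant, where 39.7% and 40.1% of all genes and probes were called, so changes with time were common. With control supernatant 5 rose (Ccn1, Ccn2, Ankrd1, Inhba and Inhbb; background 16.3% higher) and 2 fell (Skil and Pmepa1; 23.4% lower). With knockdown supernatant 4 rose (Ccn1, Ccn2, Ankrd1 and Inhbb; 17.5% higher) and 3 fell (Skil, Pmepa1 and Inhba; 22.6% lower). The median log2 difference of the 10 genes was 0.20 and 0.16, beside -0.07 and -0.11 over all features.

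**Figure D3:**
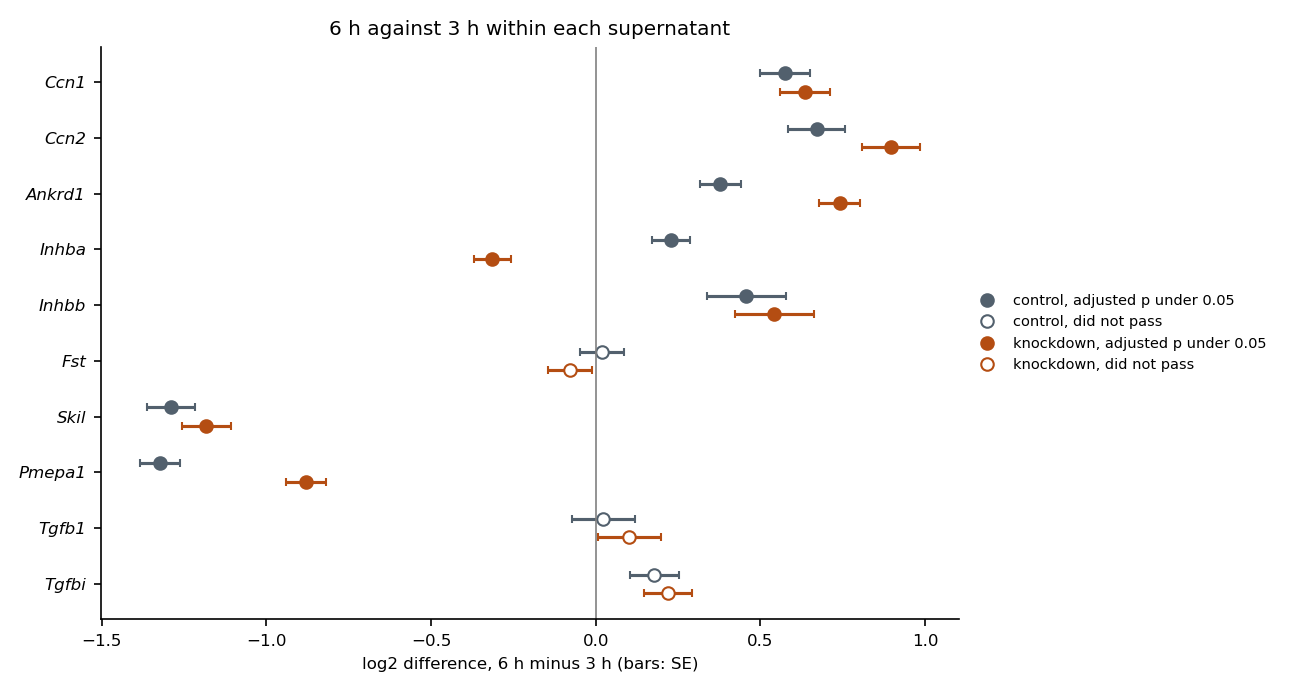
Log2 difference, 6 h minus 3 h, of each gene with control supernatant (grey) and with knockdown supernatant (brown), with bars of 1 standard error of the limma model. Filled points passed an adjusted p of 0.05. Skil and Pmepa1 fell by 0.88 to 1.32 on the log2 scale, and Inhba rose in one supernatant and fell in the other.

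The feedback genes fell with time in both supernatants. Skil fell by 1.29 with control and by 1.18 with knockdown supernatant (SE 0.074; adjusted p = 0.000181 and 0.000233), and its dimmer probe fell by 1.23 and 1.25. Pmepa1 fell by 1.32 and by 0.88 (SE 0.061; adjusted p = 0.000123 and 0.000313), and its dimmer probe fell by 1.68 and 0.95. These falls of the probes with the highest mean were called in all 21 alternatives.

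Ccn2, Ccn1 and Ankrd1 went the other way. Of the 19 other tested genes known to respond to YAP, 3 rose and 9 fell with control supernatant (16.3% and 23.4% of all features). With knockdown supernatant 3 rose and 8 fell (17.5% and 22.6% of all features). Ccn2 rose by 0.67 and 0.90 (SE 0.087; adjusted p = 0.00219 and 0.000841), Ccn1 by 0.57 and 0.63 (SE 0.076; adjusted p = 0.00236 and 0.00170), and both were called in all 21 alternatives. Ankrd1 rose by 0.38 and 0.74 (SE 0.063; adjusted p = 0.00538 and 0.000557), the former lost under median scaling and without scaling.

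Inhba rose by 0.23 ± 0.057 with control supernatant (adjusted p = 0.0233) and fell by 0.31 ± 0.057 with knockdown supernatant (adjusted p = 0.00774). The rise was lost without either array of control 3 h or replicate 1 of control 6 h, and the fall without replicate 1 of knockdown 3 h. Both were also lost without scaling and without the filter on dim probes. The rise was lost too with only the arrays compared and under median scaling, where it shrank to 0.04. Over all alternatives the adjusted p in limma reached 0.743 for the rise and 0.611 for the fall.

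Inhbb rose by 0.46 ± 0.120 and 0.54 ± 0.120 (adjusted p = 0.0279 and 0.0157). The first call was lost without either array of control 3 h or replicate 2 of control 6 h, and the second without replicate 1 of knockdown 3 h or either array of knockdown 6 h. Both were also lost under median scaling, without scaling and without the filter on dim probes. The first was lost too with only the arrays compared, and its adjusted p in limma reached 0.210 over all alternatives. Fst, Tgfb1 and Tgfbi did not pass, with log2 differences of 0.02 and -0.08, 0.02 and 0.10, and 0.18 and 0.22. The summed signal of the adipocyte markers was 237.2 to 245.4 on the 3 h arrays and 191.9 to 211.4 on the 6 h arrays. The bright probe of Fabp5 carries most of that sum (log2 signals of 7.46 to 7.53 at 3 h and 7.11 to 7.28 at 6 h). Fabp4 (5.18 to 5.31 and 5.02 to 5.06) and Cebpa (-1.91 to -1.66 and -2.48 to -2.35) were also lower at 6 h. Pparg (2.03 to 2.17 and 1.97 to 2.08) and Lpl (4.12 to 4.16 and 4.12 to 4.19) overlapped between the times. The part of these markers in the changes with time was not tested.

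Of 132 other genes listed for these pathways, 120 could be tested. These lists too were chosen with earlier results of these data known, so shares above the background carry no test. With knockdown supernatant 4 of them rose and none fell at 3 h, 14 rose and 1 fell at 6 h, and 20 rose and 1 fell on average, against 0.248%, 2.22% and 3.06% of all genes and probes called. The median log2 difference of the 120 was 0.07 at 3 h and 0.15 at 6 h, beside -0.02 and -0.01 over all features. Without scaling, without the filter on dim probes or with only the arrays compared, 0 genes of the list were called at either time (131 were tested without the filter), and on average 4 were called without scaling and 5 without the filter. Most of the calls were in genes known to respond to TGF-beta or activin, where 3 of 30 rose at 3 h, 8 at 6 h and 11 on average, with 1 (Snai2) lower on average.

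**Figure D4:**
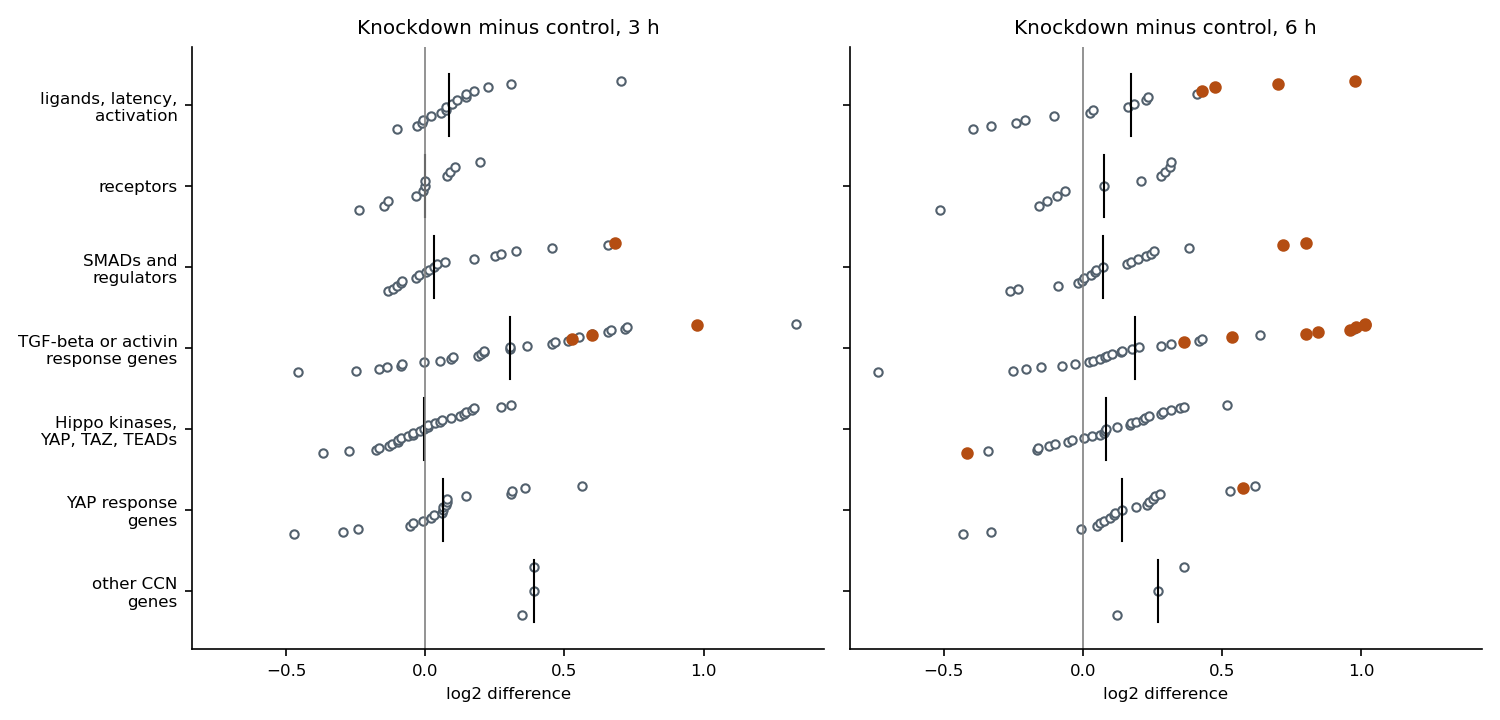
Log2 difference, knockdown minus control supernatant, of the other genes of each pathway list at 3 h (left) and 6 h (right), with a point per gene, ordered within a list by its difference. Filled points passed an adjusted p of 0.05 in limma, and the black line is the median of the list. At 6 h the filled points lie mostly among the response genes of TGF-beta and activin and among the ligands and latency genes. The row of SMADs and regulators holds 2, and the Hippo and YAP response rows hold 1 each.

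Has2, a hyaluronan synthase that TGF-beta induces in fibroblasts, had the smallest adjusted p of the response genes. Its log2 signal was 1.48 and 1.51 at control 3 h, 2.50 and 2.45 at knockdown 3 h, 1.13 and 1.11 at control 6 h, and 2.05 and 2.11 at knockdown 6 h, so no knockdown array reached down to a control array. The log2 difference was 0.98 ± 0.060 at 3 h (adjusted p = 0.0166) and 0.96 ± 0.060 at 6 h (adjusted p = 0.00677), and the average was called in all 20 alternatives. Sphk1, a sphingosine kinase, differed by 0.60 and 0.54 and passed at both times (adjusted p = 0.0439 and 0.0200). Its calls at 3 h and 6 h were kept in 8 and 11 of 21 alternatives.

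Among 19 tested SMAD proteins and regulators, 1 rose at 3 h and 2 at 6 h. Smad7, the inhibitory SMAD, had a log2 signal of 1.14 and 1.00 at control 3 h, 1.69 and 1.75 at knockdown 3 h, -0.27 and -0.28 at control 6 h, and 0.56 and 0.50 at knockdown 6 h. Within each time the knockdown arrays were higher, and in both supernatants the 6 h arrays were lower, the order seen in Skil and Pmepa1. The log2 difference of Smad7 was 0.66 ± 0.072 at 3 h (adjusted p = 0.0505) and 0.80 ± 0.072 at 6 h (adjusted p = 0.0112). Tgif1, a homeodomain corepressor of SMADs, differed by 0.68 ± 0.065 and 0.72 ± 0.065 (adjusted p = 0.0365 and 0.0112). Its calls at 3 h and 6 h were kept in 8 and 17 of 21 alternatives. Smad3 differed by 0.27 and 0.03 and did not pass (adjusted p = 0.283 and 0.847).

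Of 16 tested ligand, latency and activation genes, none passed at 3 h and 4 rose at 6 h. Thbs1, thrombospondin 1, which can release TGF-beta from its latent form, had log2 signals of 4.78 and 4.86 at control 3 h, 5.54 and 5.50 at knockdown 3 h, 3.66 and 3.76 at control 6 h, and 4.62 and 4.76 at knockdown 6 h. It differed by 0.70 ± 0.079 at 3 h (adjusted p = 0.0532) and by 0.98 ± 0.079 at 6 h (adjusted p = 0.00875). Lrrc32 codes for GARP, which holds latent TGF-beta at the cell surface, and was higher by 0.70 ± 0.078 at 6 h (adjusted p = 0.0185). The latent TGF-beta binding proteins Ltbp2 and Ltbp1 were higher by 0.47 and 0.43 at 6 h (adjusted p = 0.0265 and 0.0412). The 6 h calls were kept in 12 of 21 alternatives for Lrrc32 and in 10 for each of Ltbp2 and Ltbp1.

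Of the other ligands and inhibitors, Tgfb2 differed by 0.02 and -0.33 (adjusted p = 0.968 and 0.0648), and the follistatin relative Fstl3 by 0.04 and -0.23 (adjusted p = 0.959 and 0.289). A dimmer probe of Tgfb2 read -1.75 and -1.73 at control 3 h and -1.83 and -1.74 at knockdown 3 h. At 6 h it read -1.22 and -1.34 with control and -1.83 and -1.79 with knockdown supernatant. Among 11 tested receptors none passed at either time, and Acvr1, a type I receptor of activins and BMPs, passed on average (0.26 ± 0.044, adjusted p = 0.0475). That call was kept in 8 of 20 alternatives. Tgfbr1, the type I TGF-beta receptor, differed by 0.08 and 0.31 (adjusted p = 0.774 and 0.0809).

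The 19 other tested genes known to respond to YAP gave 0 calls at 3 h, 1 at 6 h (Nuak2) and 2 on average (Nuak2 and Foxf2). Nuak2, a kinase, was higher by 0.58 ± 0.084 at 6 h (adjusted p = 0.0345) and by 0.57 ± 0.060 on average (adjusted p = 0.0114). These calls of Nuak2 were kept in 9 of 21 and 14 of 20 alternatives, and that of Foxf2 in 8 of 20. Axl, a receptor kinase, and Amotl2, an angiomotin, differed by 0.10 and 0.07 at 6 h and did not pass (adjusted p = 0.512 and 0.507). The median of the 19 genes was 0.06 at 3 h and 0.14 at 6 h. Of the 27 tested Hippo kinases, YAP, TAZ and TEAD genes, 0 passed at 3 h and 1, the cadherin Fat4, was lower at 6 h (-0.42 ± 0.068, adjusted p = 0.0482), a call kept in 4 of 21 alternatives. Yap1, Wwtr1 (which codes for TAZ) and Tead1 differed by 0.19, 0.32 and 0.03 at 6 h and did not pass (adjusted p = 0.296, 0.0851 and 0.820).

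In the rest of the CCN family, Ccn4 differed by 0.35 ± 0.061 at 3 h (adjusted p = 0.126) and 0.36 ± 0.061 at 6 h (adjusted p = 0.0509) and passed on average (0.35 ± 0.043, adjusted p = 0.0166). The average call of Ccn4 was kept in 12 of 20 alternatives. Ccn5 differed by 0.39 and 0.27 and did not pass (adjusted p = 0.269 and 0.244). At 3 h, leaving out 1 array at a time left 0 or 1 of the 4 calls among the 120 genes, and Has2 kept its call only without either array of control 6 h. At 6 h it left 3 to 14 of the 15 calls, 3 without replicate 1 of knockdown 6 h, 8 without either array of control 3 h, and 6 without either array of knockdown 3 h or replicate 2 of knockdown 6 h. Of the 21 calls on average it left 5 to 20, with 5 and 7 without replicates 1 and 2 of knockdown 3 h and 10 and 9 without those of control 3 h.

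With time, 21 of the 120 genes rose and 47 fell with control supernatant, and 23 rose and 42 fell with knockdown supernatant, where 16.3%, 23.4%, 17.5% and 22.6% of all genes and probes did. Without scaling these counts became 14 and 19, and 19 and 11. Of the 27 Hippo and TEAD genes, 19 fell and 3 rose with control supernatant, and 16 fell and 3 rose with knockdown supernatant, while 7 and 5 were called without scaling. Those 5 included the rises of Tead4, Amotl2 and Nf2. Wwtr1 fell by 0.99 and 0.73 (SE 0.066; adjusted p = 0.000265 and 0.000669), Yap1 by 0.45 and 0.29 (SE 0.085; adjusted p = 0.00864 and 0.0383), and Tead1 by 0.53 and 0.40 (SE 0.071; adjusted p = 0.00241 and 0.00712). The falls of Yap1 were kept in 19 and 11 of 21 alternatives and those of Tead1 in 20 and 20. Neither gene was called in either supernatant without scaling. Amotl2 rose by 0.76 and 0.53 (SE 0.057; adjusted p = 0.000357 and 0.00117).

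Among SMAD genes and regulators 9 of 19 fell in each supernatant (23.4% and 22.6% of all features), and 0 and 1 rose (16.3% and 17.5%). Without scaling the falls of Smad2, Smad4 and Smurf2 were not called in either supernatant. Those of Smurf1 and Tgif2 with control supernatant, and of Ski and Ppm1a with knockdown supernatant, were lost there too. The falls of Smad7, Tgif1 and Smad3 were called in all 21 alternatives. Smad7 fell by 1.34 and 1.20 (SE 0.072; adjusted p = 0.000163 and 0.000221), Tgif1 by 1.24 and 1.21 (SE 0.065; adjusted p = 0.000150 and 0.000170) and Smad3 by 1.16 and 1.40 (SE 0.074; adjusted p = 0.000237 and 0.000164). Tgfbr1 fell by 0.72 and 0.48, and the coreceptor Eng rose by 1.06 and 0.84. Inha, which codes for the inhibin alpha subunit that pairs with the products of Inhba or Inhbb, rose by 1.56 and 1.45 (SE 0.133; adjusted p = 0.000523 and 0.000698).

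The response genes were divided with time. Of 30 that respond to TGF-beta or activin, 8 rose and 10 fell with control supernatant, and 8 rose and 8 fell with knockdown supernatant. All genes and probes were divided too: 16.3% rose and 23.4% fell with control supernatant, and 17.5% and 22.6% with knockdown supernatant. The transcription factor Snai2 rose by 1.43 and 1.63, while Junb, an AP-1 subunit, fell by 1.92 and 1.66, and Sphk1 by 1.19 and 1.26. Of the 19 other genes that respond to YAP, 3 rose and 9 fell with control supernatant, and 3 rose and 8 fell with knockdown supernatant. F3, tissue factor, rose by 0.22 (adjusted p = 0.0481, kept in 5 of 21 alternatives) and by 0.80 (adjusted p = 0.000549), and the RNA-binding protein gene Rbms3 fell by 0.64 and 1.01. Thbs1 fell by 1.10 and 0.83, and Ccn5 rose by 0.66 and 0.54.

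The patterns most like those of Ccn2 and Inhba were sought among 13786 other named genes, by the root mean square difference of log2 signals over the 8 arrays after each gene was centred on its own mean. For Inhba the nearest was Zfp36, at 0.135 log2 units, and Id3 (0.159) and Cish (0.183) were also among the 5 nearest. For Ccn2 the nearest were Saa1 (0.229), Serpina3f (0.251), Hp (0.258), Mmp10 (0.271) and Acod1 (0.275). These distances describe 8 arrays of 4 groups and carry no test.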

How the data were processed

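Total RNA of 3T3-L1 cells, grown in 10% fetal calf serum before differentiation, was measured on 8 one-colour Agilent arrays, 2 for each of 4 groups, with 0.1 ug of RNA labelled with Cy3, per the labels' protocols. The deposited scanner output holds for each spot a processed signal, which per the file headers is an intensity on a linear scale after background subtraction and before any scaling of arrays. The submitters' processing notes name the software as Agilent Feature Extraction 10.7.3.1. A deposited table of log2 values, not centred per gene, differed from log2 of the processed signal by a single constant on each array (array medians -4.24 to -3.96) and served as an alternative.

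Outlier spots were left out, the 75th percentile of each array was subtracted from its log2 signals, and replicate spots were averaged. Of 55681 probes, 27235 were named by RefSeq transcript and 20 by symbol or synonym (RefSeq names of GRCm38.p6), and 28426 stayed unnamed. Probes were tested where both arrays of some group showed them well above background (30117 probes), and the probe with the highest mean stood for its gene, leaving 25804 features, 13796 of them named. Group means were fitted with limma 3.58.1 in R 4.3.3 (lmFit and eBayes, 4 residual and 1.74 prior degrees of freedom) on all 8 arrays, errors are standard errors of that model, with Benjamini-Hochberg adjustment of p-values over all features. The number of arrays limits the precision. The procedure was tested on simulated data. Tables were handled in Python 3.11.15 with pandas 2.3.3 and numpy 2.4.6, and plots drawn with matplotlib 3.10.9.

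The 10 genes and the pathway and marker lists were chosen with earlier results of these data known, so no p-value adjusted over them alone is given. Besides the 10 genes, the text names up to 4 genes per list with the smallest adjusted p between supernatants, up to 3 with time, and some fixed genes (Smad7, Smad3, Tgfbr1, Tgfb2, Fstl3, Yap1, Wwtr1, Tead1, Axl, Amotl2, Ccn4, Ccn5 and the markers Pparg, Fabp4, Adipoq, Dlk1 and Vim). A few genes that the rule named are not reported here. Other marker names, and SMAD and Hippo genes named only for keeping or losing calls without scaling, were added after their values were seen. The 21 alternatives changed the scaling, background correction, filter, probe choice, variance model, array weights, replicate block, bright patches, source of values or the arrays used.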

Additional observations from a re-analysis of the deposited data

Results flagged for a closer look

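Inhba moved in opposite directions with time in the 2 supernatants. Its log2 signal rose from 2.13 and 2.14 to 2.38 and 2.34 with control supernatant and fell from 3.36 and 3.32 to 3.02 and 3.03 with knockdown supernatant, on every array. The 6 h minus 3 h difference with knockdown supernatant minus that with control supernatant was -0.54 (SE 0.081, 2 arrays a group), which did not pass in limma (adjusted p = 0.271). Neither the rise nor the fall was called without scaling or without the filter on dim probes.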

How the results depend on the processing

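Of the 10 genes, 3 were called at 3 h, 6 at 6 h, 5 on average, 0 for the change between times, and 7 and 7 with time in control and knockdown supernatant. At 3 h the count was 0 without scaling, without the filter on dim probes, with a replicate block and with only the arrays compared, and 5 with the filter on all 8 arrays, with array weights and with a trended robust eBayes. At 6 h it was 1 without scaling, 0 without the filter and 0 with only the arrays compared. On average it was 3 without scaling and 3 without the filter. With time in control supernatant it was 4 under median scaling and 4 without scaling. Leaving out 1 array gave 0 to 2 at 3 h, 2 to 6 at 6 h, 4 to 6 on average, 0 for the change between times, 5 to 7 and 5 to 7 with time. A single array left in a group is assumed there to vary like the others. No called difference of the 10 genes changed sign. The replicate numbers did not pair the arrays (correlations of replicate differences -0.046 to 0.087); with the replicate block 0 genes were called at 3 h (0 of the 120 list genes too), 4 genes were called at 6 h, 5 on average and 7 and 7 with time. Over all features, calls at 3 h were 64 (0 without scaling, without the filter, with the block or with only the arrays compared, 346 with trended robust eBayes), at 6 h 573 (0 with only the arrays compared, 1257 with trended robust eBayes, 1958 without replicate 2 of control 6 h) and on average 790 (74 without the filter, 1540 with trended robust eBayes, 1997 without that array). Median scaling moved the median of all features at 6 h to 0.18 and, with time in control supernatant, to -0.26. The split of higher against lower calls at 6 h was 392 to 181, 916 to 102 under median scaling, 47 to 40 without scaling, and 376 to 491 and 965 to 993 without replicates 1 and 2 of control 6 h. On average it was 543 to 247, 1106 to 109 under median scaling, and 597 to 576 and 984 to 1013 without those arrays in turn. With time it was 4212 to 6039 (2703 to 9469 under median scaling) with control and 4526 to 5825 (3493 to 7074 under median scaling, 3685 to 1816 without scaling) with knockdown supernatant. The causes were not tested.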
